A study of Mus musculus with 12 samples.

Results

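The Slc25a genes encode the mitochondrial solute carriers, and they were taken as the protein-coding genes of the mouse GENCODE M21 annotation whose symbol starts with Slc25a. There were 47 such genes among 21980 protein-coding genes, and all 47 had a row in the deposited tables of 55573 genes. Most carriers are small proteins of the inner mitochondrial membrane that exchange a metabolite or cofactor between the matrix and the cytosol, and a few members sit in the outer membrane or in peroxisomes. Oocytes make ATP mainly by oxidative phosphorylation of pyruvate, so that exchange of ADP for ATP and import of phosphate by carriers are central to their energy supply. A new carrier is brought through the TOM complex of the outer membrane, guided by small chaperones, and placed in the inner membrane by the TIM22 complex.

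Poly(A) RNA was sequenced from GV oocytes, which are fully grown oocytes with an intact nuclear envelope, and no group differed in genotype or treatment; ovaries were held in M2 medium with milrinone at 2.5 μM during collection. According to the methods the oocytes came from a B6D2F1 female of 12 weeks, and 8 oocytes gave 12 libraries in 6 groups of 2. Whole oocytes were amplified for 10, 14 or 18 PCR cycles, 1 oocyte per library, and 1/2, 1/4 or 1/8 of an oocyte was amplified for 18 cycles after dilution of the lysates of 2 further oocytes. The same amount of ERCC (External RNA Controls Consortium) spike-in RNA was added to each library, and the comparisons address how amplification and the amount of input RNA show in the counts. All oocytes came from a single female as far as the methods say, so p-values measure the spread between these libraries and not between animals.

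Counts on genes were 11597144 and 9189672 (10 cycles), 12349577 and 13806199 (14 cycles) and 3017069 and 1706478 (18 cycles). They were 4024670 and 3598549 for 1/2 oocytes, 4027907 and 5049518 for 1/4 oocytes, and 11404262 and 1702062 for 1/8 oocytes. Levels are given as CPM, the counts of a gene scaled to the same total of gene counts in every library, in which 1 count was worth between 0.0724 and 0.588. Reads were not collapsed by molecule, and the floor of 3 counts used below covers counting error only.

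The whole oocytes at 18 cycles stood apart from those at 10 and 14 cycles before any carrier was examined. The 12 oocyte markers, of which Gdf9 had the most counts over all 12 libraries, summed to 33410 and 29220 CPM at 10 cycles and to 32280 and 33740 at 14 cycles. At 18 cycles the same sum was 9166 and 7521 CPM in whole oocytes, 11180 and 10850 in 1/2, 16200 and 17910 in 1/4, and 25830 and 24570 in 1/8 oocytes. All 12 oocyte markers were counted. The granulosa and cumulus list, with the most counts over all libraries on Nr5a2, summed to 162 and 86.6 CPM (10 cycles), 110 and 154 (14 cycles) and 63.6 and 28.1 (18 cycles). Among whole oocytes that sum too was lowest at 18 cycles, as were Nr5a2, Cyp19a1 and Kitl. Amh and Foxl2 were instead highest in the 18-cycle library of replicate 1, at 6.63 and 3.65 CPM. Inha varied within groups, at 34.2 and 0.327 CPM (10 cycles), 3.64 and 31.9 (14 cycles) and 17.2 and 0.586 (18 cycles). In the fractions the list summed to 36.0 and 32.5 CPM (1/2), 58.1 and 62.0 (1/4) and 79.5 and 74.6 (1/8). The blood list summed to at most 1.52 CPM, with Hba-a1, Hba-a2 and Hbb-bt at 0 in every library. Gene counts per ERCC count were 323 and 360 at 10 cycles, 347 and 354 at 14 cycles, but 1873 and 1158 at 18 cycles in whole oocytes. Each whole oocyte was a single library with 1 cycle number, so that cycles, oocytes and library preparation cannot be told apart among them, and the part of the marker difference in the results below was not tested.

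Summed, the 47 carriers held a similar share of the counts in every library. The whole oocytes had 1627 and 1472 CPM (10 cycles), 1620 and 1673 CPM (14 cycles), and 1749 and 1490 CPM (18 cycles). The fractions had 1502 and 1463 CPM (1/2), 1619 and 1722 CPM (1/4), and 1693 and 1375 CPM (1/8). Each group overlapped at least 1 other group, and the group means lay between 1482 ± 28.1 (SD, n = 2) for 1/2 oocytes and 1670 ± 72.7 (SD, n = 2) for 1/4 oocytes. Differences between these sums were not tested.

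**Figure D1:**
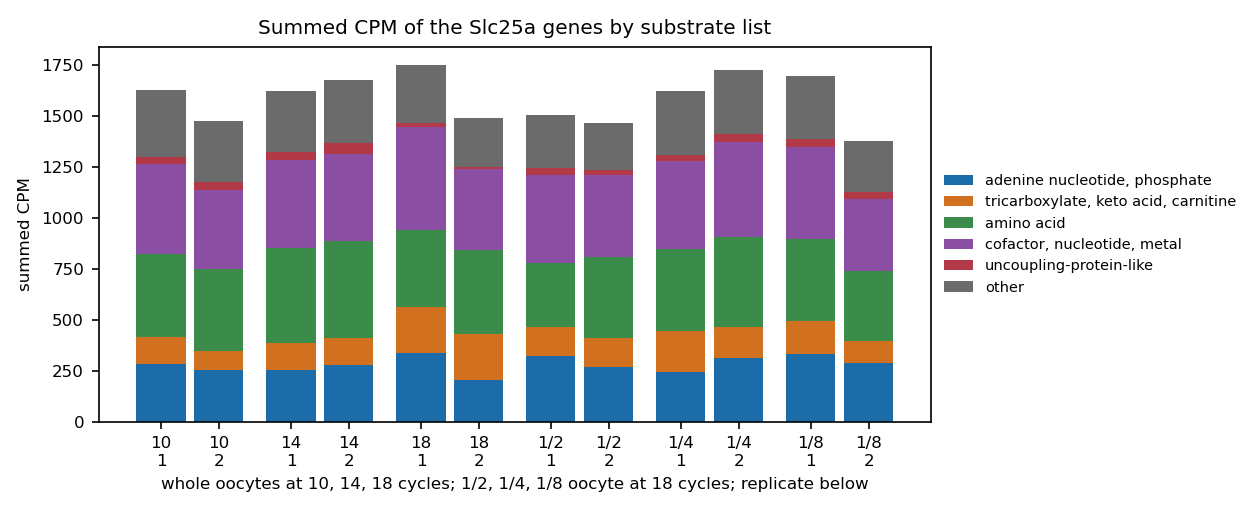
Summed CPM of the 47 carrier genes in each of the 12 libraries, stacked by the list of substrates they carry, with cycle number or oocyte fraction on the x axis and the replicate number below it. The bars end between 1375 and 1749 CPM, and the tricarboxylate, keto acid and carnitine list is tallest in the whole oocytes at 18 cycles, at 228 and 227 CPM.

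To compare carriers with each other, counts were divided by the length of all merged exons and scaled to the same total in every library (TPM), and averaged over the 4 whole oocytes at 10 and 14 cycles. On that scale 33 of the 47 carriers averaged at least 1 TPM. Their median over all 47 was 7.70 TPM, beside 6.82 for the 17367 protein-coding genes with a count in those oocytes. Counts were found for 45 carriers in at least 1 library. Slc25a2, an ornithine carrier, and Slc25a41, an ATP-Mg/phosphate carrier, had 0 counts in all 12 libraries, where 3 counts would have been 0.217 CPM in the deepest of them. Slc25a43 had 1 count in total.

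Slc25a48, a gene linked to mitochondrial choline import (chr13:56438355-56474239, plus strand, mm10), had the highest level in these 4 oocytes, at 255 ± 18.2 TPM (SD, n = 4). It supplied between 13.2% and 18.3% of all carrier counts in a library. The lowest of its 4 oocytes, at 241 TPM, lay above the highest of Slc25a5, at 183 TPM. Slc25a5, the ADP/ATP carrier of many dividing tissues, averaged 176 ± 6.17 TPM and met the range of Slc25a15, the ornithine carrier of the urea cycle, at 147 ± 17.7 TPM.

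Slc25a1, the citrate carrier, followed at 129 ± 18.5 TPM and Slc25a17, a peroxisomal carrier of CoA, FAD and NAD, at 114 ± 10.5 TPM, and Slc25a1 overlapped both Slc25a15 and Slc25a17, which did not overlap each other. A gap then separated Slc25a17, with a lowest value of 98.6 TPM, from Slc25a4, the ADP/ATP carrier of heart and muscle, with a highest value of 81.0 TPM. Slc25a39, a glutathione carrier, averaged 73.2 ± 4.79 TPM and overlapped Slc25a4. Slc25a38, which brings in glycine for haem synthesis, averaged 61.5 ± 3.44 TPM. Lower levels were those of Slc25a3, the phosphate carrier, at 44.2 ± 6.13 TPM, Slc25a44, a branched-chain amino acid carrier, at 43.4 ± 4.32 TPM, and Slc25a26, the S-adenosylmethionine carrier, at 39.9 ± 3.86 TPM. The ranges of these last 3 genes overlapped. The place of Slc25a3 depends on the length used. Its merged exons span 5550 bases and its longest coding transcript 1612, beside 2353 and 1925 for Slc25a4. In CPM Slc25a3 lay above Slc25a4 in these 4 oocytes, at means of 76.6 and 57.0.

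**Figure D2:**
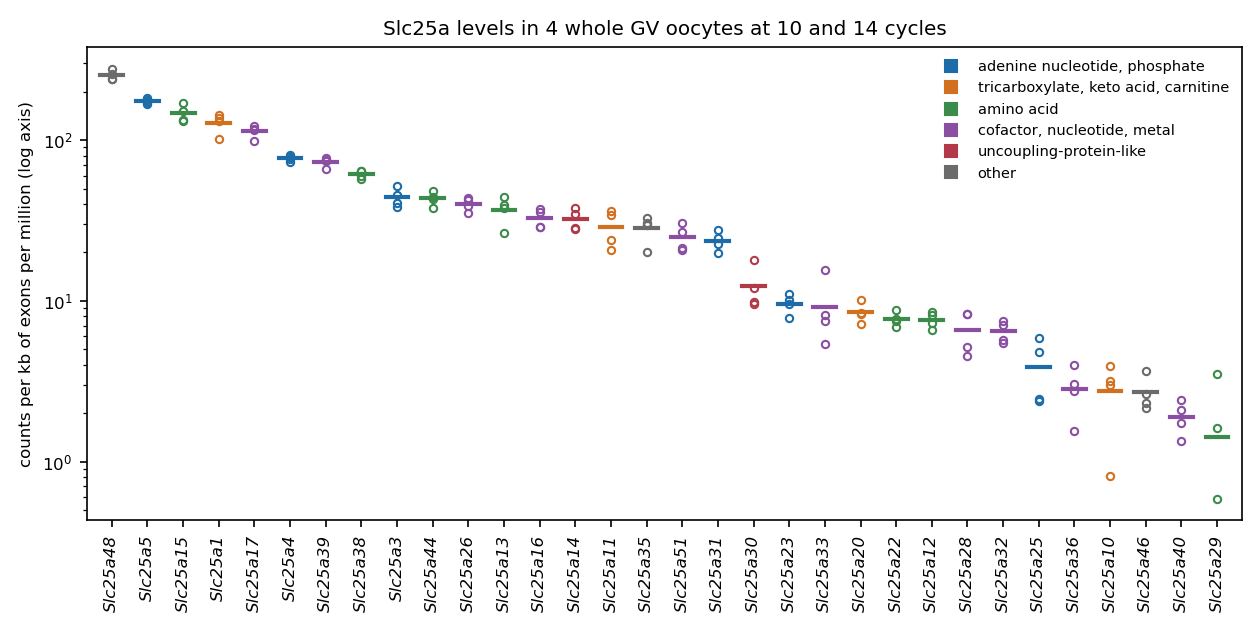
Levels of 32 of the 33 carriers that averaged at least 1 TPM, on a log axis, in the 4 whole oocytes at 10 and 14 cycles; circles are oocytes, bars are means, and colours give the substrate lists. Slc25a48 is highest at 255 TPM and Slc25a29 lowest at 1.43 TPM, with its 1 oocyte at 0 not drawn.

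Reads were counted without regard to strand, as far as the counts show: only 6.90% to 10.8% of reads fell on no feature although the Nextera kit does not mark strand. The methods name default HTSeq settings, which use strand, for data sets analysed there, so the setting behind the deposited counts is not certain. Carriers whose exons overlap a gene on the opposite strand are therefore uncertain. The overlap covered 31.3% of Slc25a35 (with Rangrf), 14.9% of Slc25a33, 8.92% of Slc25a11 (with Rnf167), 7.06% of Slc25a46 and 6.60% of Slc25a10. Slc25a5, Slc25a36, Slc25a37 and Slc25a40 also have copies elsewhere in the genome with at least 95% identity over 300 bases or more, and how reads were shared between them was not tested.

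Differences between groups were tested with edgeR on all genes that reached 5 counts in 2 or more libraries, with counts scaled by the median ratio of each library to the others, and a gene passed at an adjusted p below 0.01. Of the 47 carriers, 36 met the count minimum among the 6 whole oocytes and 35 among the 8 libraries at 18 cycles. The remainder were too low to test. Fitted values of carriers at 0 in a whole group are not quoted.

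Between 14 and 10 cycles no carrier passed. Of the 36 tested, 0 passed in edgeR, as did 0% of all 17532 genes, and DESeq2 also called 0 carriers. At an unadjusted p below 0.05 edgeR gave 0 carriers and 514 genes. The median log2 difference was 0.09 for the carriers and 0.01 for all genes, and single carriers ran from -0.89 to 1.30.

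At 18 cycles some carriers were higher and others lower than at 10 cycles, within a transcriptome in which many genes did the same. Of 36 carriers 10 passed in edgeR, 7 higher and 3 lower, beside 23.1% of all genes (2131 higher and 1915 lower), so the carriers' share of 27.8% lay near the background. Their median log2 fold change was 0.28, beside -0.30 for all genes. Against 14 cycles 12 carriers passed, 8 higher and 4 lower, beside 23.3% of all genes, with medians of 0.03 and -0.30. Both comparisons use the same pair of libraries at 18 cycles, and 9 carriers passed in both. The background depended on the count filter. A filter of at least 10 counts in every library gave 9 and 13 carriers against 10 and 14 cycles, beside 45.6% and 44.8% of all genes. The medians were then 0.28 and 0.54 for the carriers, beside 0.23 and 0.25 for all genes.

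Scaling by the ERCC molecules gave another split. On that scale 24 carriers rose and 0 fell from 10 to 18 cycles (47.6% of all genes passed), and 22 rose and 0 fell from 14 to 18 cycles (47.9% of all genes). Of all genes 8348 rose and 0 fell against 10 cycles, and 8398 rose and 2 fell against 14 cycles. The median of all genes then moved from -0.30 to 1.96 against 10 cycles and to 1.97 against 14 cycles, and the carriers' medians were 2.50 and 2.29. The directions given below hold relative to the other genes of a library, by median ratio and by CPM, and the falls that passed, of Slc25a13, Slc25a17, Slc25a44 and Slc25a30, became positive values that did not pass under ERCC scaling.

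Among the adenine nucleotide and phosphate carriers, 7 of 9 genes were tested and none passed at 18 against 10 or 14 cycles by edgeR, beside 23.1% and 23.3% of all genes. By median ratio the ADP/ATP carriers Slc25a4, Slc25a5 and Slc25a31 had values of both signs against 10 cycles. Under ERCC scaling their log2 values against 10 cycles were all positive, at 2.97, 1.59 and 1.55. Differences between these carriers were not tested. Slc25a4 measured 58.5 and 57.1 CPM (10 cycles), 57.2 and 55.0 (14 cycles) and 89.5 and 66.8 (18 cycles). Both 18-cycle oocytes were the highest of the 6, and the groups at 10 and 14 cycles overlapped. The log2 difference from 10 cycles was 0.69 ± 0.20 (SE), at an edgeR adjusted p of 0.0231.

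Slc25a5 went the other way in value, at 90.2 and 87.9 CPM (10 cycles), 88.1 and 95.6 (14 cycles) and 53.4 and 38.7 (18 cycles). The log2 difference from 10 cycles was -0.69 ± 0.21 (SE), at an edgeR adjusted p of 0.0238. Under ERCC scaling it turned to 1.59 and passed as a rise (edgeR adjusted p = 0.00382). With DESeq2, both Slc25a4 and Slc25a5 passed, at adjusted p of 0.00780 and 0.00988. Slc25a31, the ADP/ATP carrier best known from male germ cells, was counted in all 12 libraries at 5.27 to 22.8 CPM. It measured 14.7 and 13.1 CPM at 10 cycles and 8.29 and 5.27 at 18 cycles, a log2 difference of -0.75 ± 0.36 (SE) that did not pass (edgeR adjusted p = 0.130).

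Slc25a3 rested on a single library. It measured 88.8 and 69.9 CPM at 10 cycles and 149 and 57.4 at 18 cycles, so the groups overlapped. Its log2 difference was 0.63 ± 0.32 (SE) with both 18-cycle oocytes, but -0.12 without the library of replicate 1 and 1.09 without that of replicate 2.

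Of 4 tricarboxylate, keto acid and carnitine carriers tested, 3 were higher at 18 than at 10 cycles and 0 lower, with a median log2 fold change of 1.43, beside 12.2% of all genes higher. Against 14 cycles 2 were higher, beside 12.5% of all genes. Slc25a11 was 1 of these 2 and did not pass in a fit of only the libraries at 14 and 18 cycles (edgeR adjusted p = 0.0144). Of the 3, only Slc25a1 passed without the 10-cycle library of replicate 1, and none without that of replicate 2. Slc25a1 measured 91.7 and 68.1 CPM (10 cycles), 90.0 and 98.9 (14 cycles) and 153 and 144 (18 cycles). Both 18-cycle oocytes lay above all others, and the groups at 10 and 14 cycles overlapped. It rose by 1.16 ± 0.20 (SE) on the log2 scale against 10 cycles (edgeR adjusted p = 0.00146).

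Slc25a11, the oxoglutarate carrier of the malate-aspartate shuttle, measured 23.7 and 15.6 CPM at 10 cycles and 36.1 and 70.3 at 18 cycles. It rose by 1.70 ± 0.41 (SE), at an edgeR adjusted p of 0.00804 that became 0.0103 with TMM scaling. Slc25a10, the dicarboxylate carrier, was at 3.19 and 0.871 CPM at 10 cycles and 24.2 and 6.45 at 18 cycles. Its log2 fold change of 3.16 ± 0.68 (SE) was the largest of any carrier past the threshold there (edgeR adjusted p = 0.00481), and it was lost without the 18-cycle library of replicate 1. The fourth gene tested, Slc25a20 for carnitine, had a value of 0.17 ± 0.40 (SE) that did not pass.

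Of 7 amino acid carriers tested, 2 rose and 2 fell against both 10 and 14 cycles, beside 12.2% of all genes higher and 10.9% lower against 10 cycles, and 12.5% and 10.8% against 14 cycles. The pair of aspartate/glutamate carriers had calls in opposite directions. Slc25a12 (chr2:71271063-71367749, minus strand, mm10), the form of brain and muscle, measured 16.5 and 18.5 CPM (10 cycles), 19.9 and 15.4 (14 cycles) and 47.4 and 90.8 (18 cycles). Slc25a13 (chr6:6041218-6217173, minus strand), the form of liver, measured 44.2 and 46.6 CPM, 53.0 and 31.7, and 7.29 and 13.5 in the same groups. At 10 and 14 cycles Slc25a13 had the more counts per length, at 37.0 TPM beside 7.65 TPM for Slc25a12. The log2 fold changes against 10 cycles were 2.24 ± 0.36 (SE) for Slc25a12 (edgeR adjusted p = 0.000913) and -1.93 ± 0.40 (SE) for Slc25a13 (edgeR adjusted p = 0.00357).

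Slc25a38 measured 48.4 and 50.9 CPM at 10 cycles and 103 and 97.3 at 18 cycles, and it rose by 1.27 ± 0.20 (SE) (edgeR adjusted p = 0.000805). Slc25a44 measured 53.1 and 41.8 CPM (10 cycles), 49.1 and 50.3 (14 cycles) and 12.9 and 18.8 (18 cycles). Its log2 fold change of -1.35 ± 0.29 (SE) passed with an edgeR adjusted p of 0.00475 and did not pass in a fit of only the 4 libraries at 10 and 18 cycles (adjusted p = 0.0112). Slc25a15 had 1425 and 1519 normalized counts at 10 cycles and 1384 and 1430 at 18 cycles, where the groups overlapped, and a log2 difference of -0.07 ± 0.19 (SE). In CPM its 18-cycle oocytes, at 192 and 176, lay below those at 10 cycles, at 229 and 231.

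Of 12 cofactor, nucleotide and metal carriers tested, 2 rose and 1 fell against 10 cycles, beside 23.1% of all genes called, and 4 rose and 1 fell against 14 cycles, beside 23.3%. Slc25a17 (chr15:81318911-81360812, minus strand, mm10) measured 102 and 86.6 CPM (10 cycles), 111 and 105 (14 cycles) and 20.2 and 20.5 (18 cycles). The 18-cycle oocytes lay far below the other 4, and the log2 fold change against 10 cycles was -1.96 ± 0.22 (SE) (edgeR adjusted p = 0.000159), or 0.29 under ERCC scaling. Slc25a39 (chr11:102402985-102407946, minus strand, mm10) was the reverse, at 65.1 and 63.4 CPM (10 cycles), 57.9 and 65.9 (14 cycles) and 200 and 143 (18 cycles). It rose by 1.67 ± 0.20 (SE) (edgeR adjusted p = 0.000202).

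Slc25a51, the NAD carrier of mitochondria, measured 45.6 and 35.5 CPM at 10 cycles and 82.5 and 82.0 at 18 cycles, and rose by 1.28 ± 0.25 (SE) (edgeR adjusted p = 0.00263). Slc25a28, an iron carrier known as mitoferrin, passed against 14 cycles alone: it was at 9.49 and 9.58 CPM at 10, 6.15 and 5.43 at 14, and 15.6 and 17.6 at 18 cycles. Its log2 fold changes were 1.05 ± 0.36 (SE) and 1.80 ± 0.36 (SE), with edgeR adjusted p of 0.0418 and 0.00329. Slc25a16, a carrier linked to CoA, also rose against 14 cycles alone, by 0.90 ± 0.20 (SE) (edgeR adjusted p = 0.00587), and it is named here after its values were seen. It did not pass in a fit of only the libraries at 14 and 18 cycles, nor when any library other than replicate 2 at 18 cycles was left out. Whether the changes against 10 and 14 cycles differ was not tested for any carrier.

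Of the uncoupling-protein-like carriers, 2 of 3 were tested and 0 passed in edgeR against 10 cycles, beside 23.1% of all genes. Slc25a30, a carrier described in kidney, measured 13.5 and 13.9 CPM (10 cycles), 17.4 and 26.1 (14 cycles) and 6.96 and 1.76 (18 cycles). It fell by 1.92 ± 0.48 (SE) on the log2 scale against 14 cycles (edgeR adjusted p = 0.00986), but did not pass in a fit of only the 4 libraries at 14 and 18 cycles (edgeR adjusted p = 0.0238). It also failed to pass when any library other than replicate 1 at 18 cycles was left out. Among the remaining members 4 of 8 were tested and 0 passed in edgeR against 10 or 14 cycles, beside 23.1% and 23.3% of all genes. Slc25a48 did not pass, at 289 and 270 CPM (10 cycles), 258 and 258 (14 cycles) and 265 and 196 (18 cycles), a log2 difference of -0.02 ± 0.19 (SE) from 10 cycles. In CPM both 18-cycle oocytes lay below both at 10 cycles.

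**Figure D3:**
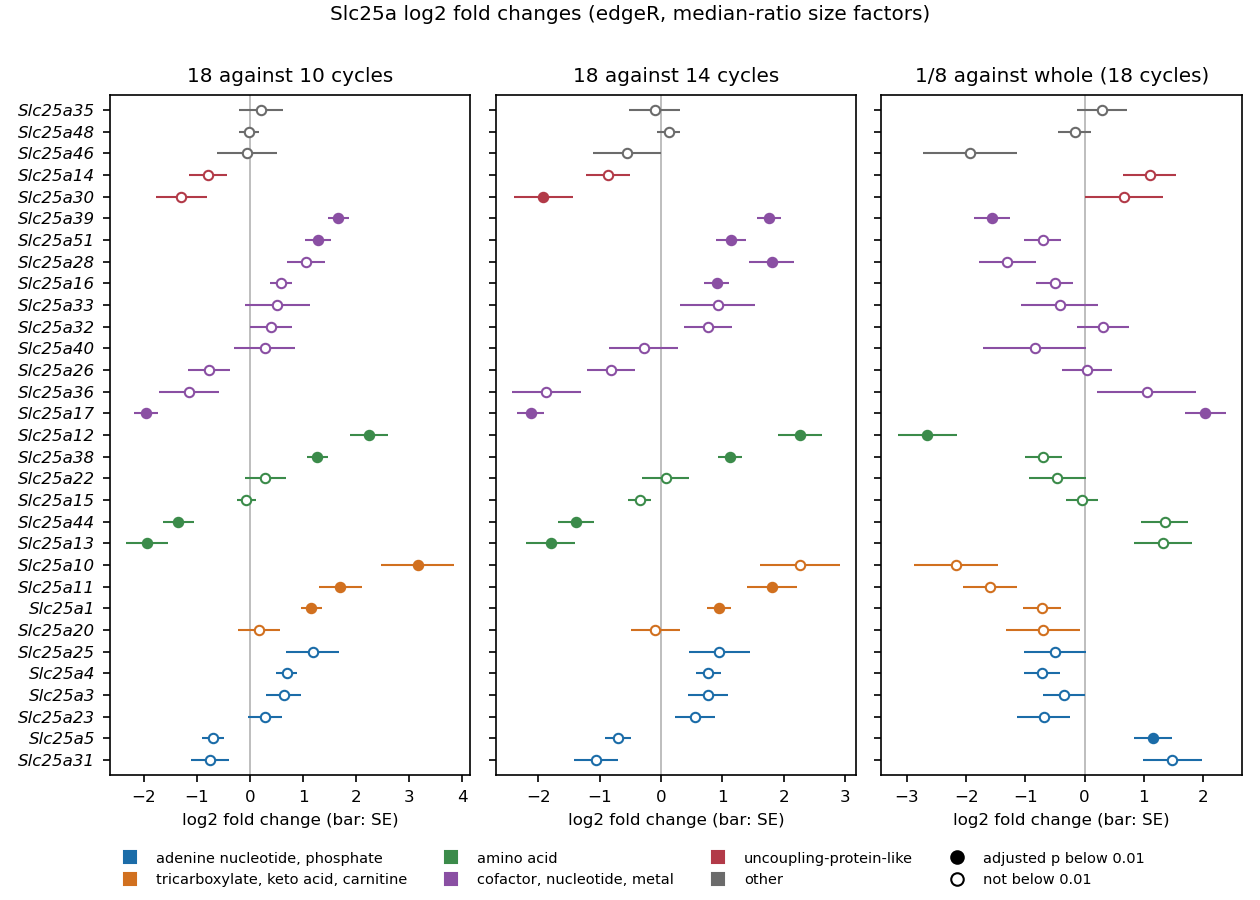
Log2 fold changes (points) with their SE (bars) from edgeR for 31 tested carriers that averaged at least 20 normalized counts in the 10- and 18-cycle oocytes, grouped by substrate list; filled points passed at an adjusted p below 0.01. The filled points at 18 against 10 cycles run from -1.96 for Slc25a17 to 3.16 for Slc25a10, and Slc25a17 lies at 2.04 in 1/8 against whole oocytes.

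These calls depended on both reference libraries, as did those of all genes. Without replicate 1 or 2 at 10 cycles 3 carriers passed against 10 cycles, beside 11.5% and 9.60% of all genes. Without replicate 1 or 2 at 14 cycles 4 passed against 14 cycles, beside 11.5% and 11.02% of all genes, and leaving out replicate 1 or 2 at 10 cycles gave 7 there, beside 19.1% and 18.8%. Slc25a17 and Slc25a39 passed against 10 cycles with each of the 6 libraries left out in turn, and Slc25a12, Slc25a17 and Slc25a39 did so against 14 cycles.

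The carriers that rose and fell also differed in base composition. The median GC content of the longest coding transcript was 55.9% for the 7 risen carriers, 47.0% for the 3 fallen and 48.6% for the 26 that did not pass. For all protein-coding genes the medians were 54.4% for those that rose and 45.7% for those that fell. Across the 36 carriers Spearman's correlation between GC content and the log2 fold change was 0.50, and across 13927 protein-coding genes it was 0.38. Genes share libraries and are not replicates, so these are descriptions. Slc25a12, at 46.6% GC, Slc25a51, at 47.9%, and Slc25a44, at 53.4%, ran against that order.

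In the diluted lysates few carriers passed against whole oocytes at 18 cycles once scaled by the median ratio. The 6 fraction libraries came from 2 oocytes, and since the labels do not say which share an oocyte, the fit took them as independent. In 1/2 against whole oocytes 0 of 35 carriers passed in edgeR, beside 0.115% of all genes, and 8 had an unadjusted p below 0.05; DESeq2 called 1 carrier, Slc25a5, beside 1.01% of all genes. In 1/4 against whole oocytes 0 passed in edgeR, beside 0.467% of all genes, with 7 at an unadjusted p below 0.05 and 0 called by DESeq2, beside its 1.63% of all genes. In 1/8 against 1/2 oocytes 0 passed in edgeR, beside 5.94% of all genes, with 8 at an unadjusted p below 0.05. DESeq2, with 9.72% of all genes called, had Slc25a46 alone there, a protein of the outer membrane. It was at 6.21 and 6.39 CPM in 1/2 oocytes, and in 1/8 oocytes at 0.789 CPM and at 2 counts, below the floor of 3 counts (1.76 CPM).

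In 1/8 against whole oocytes 4 of 35 carriers passed in edgeR, 2 higher and 2 lower, beside 15.7% of all genes (1047 higher and 1281 lower). The carriers' median log2 fold change was -0.42, beside 0.03 for all genes. Slc25a12, Slc25a17 and Slc25a39 had also passed in the cycle comparisons, which use the same 18-cycle oocytes, and Slc25a5 had not. Slc25a17 measured 105 and 86.4 CPM in 1/8 oocytes beside 20.2 and 20.5 in whole oocytes at 18 cycles, a log2 fold change of 2.04 ± 0.34 (SE) (edgeR adjusted p = 0.000209).

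Slc25a5 measured 127 and 108 CPM in 1/8 oocytes beside 53.4 and 38.7, a rise of 1.15 ± 0.32 (SE) close to the threshold (edgeR adjusted p = 0.00993). Slc25a12 measured 14.0 and 10.6 CPM beside 47.4 and 90.8, and fell by 2.65 ± 0.50 (SE) (edgeR adjusted p = 0.000513). Slc25a39 measured 80.2 and 50.5 CPM beside 200 and 143, and fell by 1.56 ± 0.31 (SE) (edgeR adjusted p = 0.000844). For Slc25a17 and Slc25a39 the 1/8 oocytes thus lay near the 10- and 14-cycle oocytes and the 1/2 and 1/4 oocytes between them and the whole oocytes at 18 cycles. Slc25a17 measured 49.4 and 47.0 CPM in 1/2 and 34.8 and 46.9 in 1/4 oocytes.

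With whole oocytes at 10 cycles as the reference, 0 of 38 carriers passed in 1/8 oocytes by edgeR, beside 0% of all 18041 genes, with 6 carriers and 2275 genes at an unadjusted p below 0.05. Slc25a17 then had a log2 difference of 0.08, Slc25a39 of 0.11, Slc25a12 of -0.41 and Slc25a5 of 0.46. The oocyte marker sum of the 1/8 libraries, given above, was also nearer to that at 10 cycles than to that of whole oocytes at 18 cycles, and its part in these values was not tested. Without the whole oocyte of replicate 2 or without the 1/8 library of replicate 2, only 2 carriers passed, beside 10.9% and 8.92% of all genes. Slc25a17 passed with each of the 8 libraries left out in turn, and Slc25a5 with none of them.

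**Figure D4:**
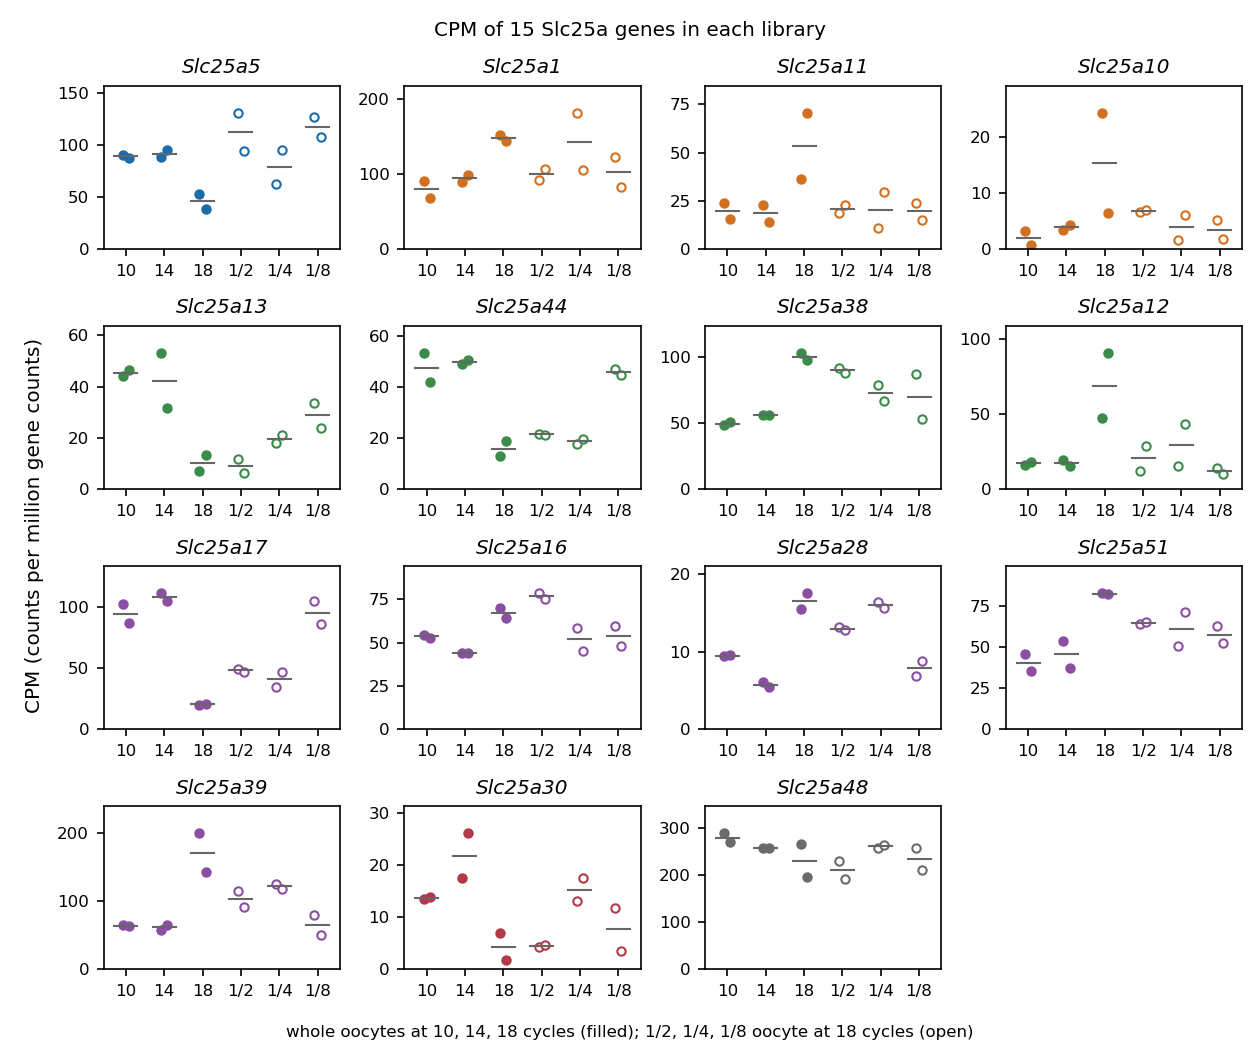
CPM of 15 carriers in each library: filled points are whole oocytes at 10, 14 and 18 cycles, open points are 1/2, 1/4 and 1/8 oocytes at 18 cycles, and lines are group means. The y axes start at 0 and differ between genes; Slc25a17 is at 20.2 and 20.5 CPM in whole oocytes at 18 cycles and at 105 and 86.4 CPM in 1/8 oocytes.

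Scaled by the ERCC molecules, no carrier passed as higher in any fraction, and neither did any other of the 14788 genes tested. In 1/2 oocytes 22 of 35 carriers were lower and 0 higher, beside 52% of all genes, and the medians were -2.15 and -2.00. In 1/4 oocytes 28 were lower and 0 higher, beside 69.7% of all genes, and the medians were -2.44 and -2.69. In 1/8 oocytes 34 were lower and 0 higher, beside 87.5% of all genes, and the medians were -5.44 and -4.92. Slc25a53 was the tested carrier that did not pass in 1/8 oocytes.

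The carriers differed among themselves in these values. Slc25a12 had log2 fold changes of -3.75 ± 0.55, -4.07 ± 0.56 and -7.49 ± 0.65 (SE) in 1/2, 1/4 and 1/8 oocytes, and Slc25a10 of -3.36 ± 0.71, -5.07 ± 0.76 and -7.25 ± 0.83 (SE). Against whole oocytes at 10 cycles Slc25a12 instead had 0.55, 0.17 and -3.19, and Slc25a10 2.20, 0.43 and -1.70, of which only the -3.19 passed. Slc25a17 had the values -0.76 ± 0.52, -1.89 ± 0.53 and -2.91 ± 0.55 (SE), of which the first did not pass. Slc25a48 had -2.15 ± 0.48, -2.73 ± 0.49 and -5.16 ± 0.55 (SE).

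The 3 comparisons share the 18-cycle whole oocytes, whose gene counts per ERCC count were 1873 and 1158. The fractions had ratios of 439 and 344 (1/2), 214 and 174 (1/4), and 49.3 and 46.5 (1/8). With whole oocytes at 10 cycles as the reference, the medians of the carriers were 0.48, -0.34 and -2.73 in 1/2, 1/4 and 1/8 oocytes, beside -0.12, -0.81 and -2.82 for all genes, and 1, 2 and 33 carriers passed, beside 8.67%, 8.62% and 74.3% of all genes. Without the library of replicate 1 at 18 cycles the count was 9 in 1/2 and 18 in 1/4 oocytes, beside 21.1% and 50.9% of all genes. Without replicate 2 of the 1/2 oocytes it was 6, beside 13.2% of all genes, and without replicate 2 of the 1/4 oocytes it was 17, beside 46.7%.

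Other genes of mitochondrial transport gave a setting for the carriers. A list of TOM and TIM import genes held 15 genes of TOM, of TIM22 and of the small chaperones, and 5 of the TIM23 complex, which is not on the carrier route (Timm17a, Timm17b, Timm23, Timm44 and Timm50). Of these 20 genes 19 were tested, and at 18 against 10 cycles 11 rose and 2 fell, with a median log2 fold change of 1.27, beside -0.30 for all genes, of which 12.2% rose and 10.9% fell, and 4 of the 11 rises and 1 of the falls were TIM23 genes. Timm29, a subunit of TIM22, measured 71.9 and 50.1 normalized counts at 10 cycles and 640 and 539 at 18 cycles, a log2 fold change of 3.27 ± 0.28 (SE) (edgeR adjusted p = 6.28e-05). Timm13, a chaperone of the intermembrane space, rose by 2.96 ± 0.23 (SE), and Timm50, a receptor of the TIM23 complex, by 2.63 ± 0.20 (SE). The 2 falls, named after their values were seen, were Timm10, another chaperone of that space, at -2.55 ± 0.28 (SE), and Timm17a at -1.43 ± 0.21 (SE).

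In 1/8 against whole oocytes 2 genes of the TOM and TIM list rose and 7 fell, with a median of -1.08, beside 7.08% of all genes higher, 8.66% lower and a median of 0.03. Of the TIM23 genes Timm17a was 1 of the rises, and Timm17b and Timm50 were 2 of the falls. Timm29 there had a log2 fold change of -3.80 ± 0.38 (SE), and Timm10 of 2.45 ± 0.47 (SE). These comparisons share the 18-cycle whole oocytes.

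Of the 19 other inner membrane transporters listed 18 were found and 17 tested. At 18 against 10 cycles 5 rose and 0 fell in edgeR, beside 12.2% of all genes higher and 10.9% lower. Mpc2, a subunit of the pyruvate carrier, rose by 1.80 ± 0.24 (SE), Mcub, a subunit of the calcium uniporter, by 1.72 ± 0.35 (SE), and Mcur1, a regulator of that uniporter, by 1.60 ± 0.31 (SE). Of the outer membrane channels, Vdac1 rose by 1.21 ± 0.20 (SE) and Vdac2 fell by 1.69 ± 0.30 (SE), and Vdac3 had 0.25 ± 0.24 (SE). Among family members under other symbols, Mtch1, an outer membrane protein, rose by 1.85 ± 0.22 (SE), and the other genes tested did not pass. Under ERCC scaling Vdac2 became 0.60. In 14 against 10 cycles 0 genes of these lists passed in edgeR. In 1/8 against whole oocytes 2 of the other inner membrane transporters rose and 1 fell by median ratio. Of all genes 7.08% were higher and 8.66% lower there.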

How the data were processed

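Per the labels and methods, the authors trimmed reads, mapped them to mm10 with the ERCC sequences by STAR and counted them with HTSeq, and deposited raw counts per gene without normalization or deduplication. The submitters' notes list cutadapt 2.5, STAR 2.7.2a and HTSeq 0.9.1, and the methods name later versions. Reads on no feature (6.90% to 10.8%) and ambiguous reads stayed out of library totals.

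Symbols, exon lengths and GC content came from GENCODE M21, which lists 55480 of the 55573 genes. edgeR 4.0.16 in R 4.3.3 (glmQLFit and glmQLFTest) tested all genes that reached 5 counts in 2 or more libraries, without a replicate block and with Benjamini-Hochberg adjustment at 0.01. The cycle fit held the 6 whole oocytes and the fraction fit the 8 libraries at 18 cycles. Size factors were median ratios over genes or over ERCC molecules. The script was tested on simulated data in which 200 genes were changed by 2 on the log2 scale. It recovered 43% of them at 18 against 10 cycles and 41% in 1/8 against whole oocytes, with 0 and 2 false calls. A carrier that did not pass may therefore still have changed.

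The members and gene lists were chosen with earlier results of these data known. The rule for named genes took the ADP/ATP and phosphate carriers, the 12 carriers with the highest TPM, up to 6 rises and 6 falls per comparison that passed, did not overlap and averaged at least 20 normalized counts, carriers without counts, and up to 3 genes from each other transport list. Slc25a16, Slc25a20, Slc25a29, Slc25a43, Slc25a53, Timm10, Timm17a, Timm17b, Timm23, Timm44 and Vdac3 were named outside it, after their values were seen. Values of 1 carrier are not reported here, and it was kept in all counts and sums. Alternatives were DESeq2 1.42.0, TMM, other ERCC scalings, other filters, a replicate block, other references and leaving out each library.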

Additional observations from a re-analysis of the deposited data

How the results depend on the processing

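Each group had 2 libraries, all oocytes came from a single female as far as the methods say, and the 18-cycle whole oocytes served in most comparisons. The cause of the changes below was not tested. Of the counts of carriers called under other settings, 43 of 56 kept within 1.5 times the reported count, 4 were weaker and 9 stronger, and of the single-gene values 315 of 361 were the same, 12 weaker, 10 stronger and 24 reversed. Counts that were 0 in both fits, as under every setting of 14 against 10 cycles, were among the 43 kept. For single-gene values, same means an unchanged sign and an unchanged outcome at the threshold, whatever the size of the change. Weaker means a lost call, and stronger a gained one. Slc25a10 at 18 against 10 cycles, 3.16 by median ratio and 5.66 by ERCC, counted as the same. With a library left out, 341 of 416 single-gene values were the same, 70 weaker, 3 stronger and 2 reversed. The lone library of a group was then assumed to vary like the other groups. Slc25a3 at 18 against 14 cycles, at 0.018 without the 18-cycle library of replicate 1, counted there as the same.

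DESeq2 called 1 carrier in 1/2 against whole oocytes (Slc25a5) and 1 in 1/8 against 1/2 oocytes (Slc25a46), beside 1.01% and 9.72% of all genes, and edgeR without a filter called 1 (Slc25a12) and 1 (Slc25a46), beside 0.897% and 5.52%. ERCC size factors gave 24 carriers at 18 against 10 cycles and 22 against 14 cycles (47.6% and 47.9% of all genes). Fits of only the 2 groups compared gave 7 at 18 against 14 cycles (19.9% of all genes). With whole oocytes at 10 cycles as the reference, edgeR called 3, 3 and 0 carriers in 1/2, 1/4 and 1/8 oocytes by median ratio (16.2%, 9.99% and 0% of all genes), and 1 and 2 in 1/2 and 1/4 oocytes by ERCC (8.67% and 8.62%).

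With library numbers as a replicate block, 1 carrier passed in 1/8 against 1/2 oocytes (7.71% of all genes), and the counts were 10 and 12 at 18 against 10 and 14 cycles (24.9% and 24.98%) and 5 in 1/8 against whole oocytes (17.9%). The correlations between same-numbered libraries ran from -0.14 to 0.14, so the numbers are not taken as a pairing.

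Leaving out each library in turn gave 0 to 0 carriers in 14 against 10 cycles, 3 to 9 in 18 against 10 (9.60% to 23.2% of all genes), and 4 to 12 in 18 against 14 (11.02% to 22.6%). By median ratio it gave 0 to 0 in 1/2, 0 to 0 in 1/4 and 2 to 4 in 1/8 against whole (7.47% to 14.6% of all genes in 1/8), and 0 to 1 in 1/8 against 1/2 oocytes (0.568% to 6.30%). By ERCC it gave 6 to 26, 17 to 29 and 30 to 34 in 1/2, 1/4 and 1/8 oocytes, beside 13.2% to 60.4%, 46.7% to 74.3% and 75.8% to 88.2% of all genes.

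The mean summed CPM with all reads in the denominator was 1341, 1421 and 1417 at 10, 14 and 18 cycles, and 1306 and 1466 in 1/2 and 1/4 oocytes. With median-ratio size factors over 12 libraries it was 1431, 1486 and 1820 at 10, 14 and 18 cycles, and 1616 in 1/2 oocytes. Without Slc25a48 it was 1270, 1388 and 1389 at 10, 14 and 18 cycles, and 1270, 1409 and 1299 in 1/2, 1/4 and 1/8 oocytes.

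Under ERCC size factors these log2 values turned positive at 18 against 10 cycles: Slc25a5 1.59, Slc25a13 0.25, Slc25a17 0.29, Slc25a31 1.55, Slc25a44 0.87 and Vdac2 0.60. Against 14 cycles they were Slc25a5 1.60, Slc25a13 0.41, Slc25a17 0.14, Slc25a30 0.43, Slc25a31 1.25 and Slc25a44 0.84. With the 10-cycle reference the reversed values by median ratio in 1/8 oocytes were Slc25a3 0.28 and Slc25a39 0.11. By ERCC in 1/2 oocytes they were Slc25a3 0.080, Slc25a10 2.20, Slc25a11 0.51, Slc25a12 0.55, Slc25a25 0.53 and Slc25a39 1.14, and in 1/4 oocytes Slc25a10 0.43, Slc25a12 0.17, Slc25a39 0.40 and Slc25a51 0.052. Without the 18-cycle whole oocyte of replicate 1, Slc25a3 was -0.12 at 18 against 10 cycles and 0.40 in 1/8 against whole oocytes, and without that of replicate 2 the same values were 1.09 and -0.84.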
